A study of Mus musculus with 8 samples.

Results

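The 10 genes described here encode enzymes that make asparagine (Asns), serine (Phgdh, Psat1 and Psph), mitochondrial one-carbon units (Shmt2 and Mthfd2), proline (Aldh18a1 and Pycr1) and cysteine (Cth and Cbs). They were chosen by symbol, and all 10 were found among the 16538 genes of a table of RPKM values (read counts scaled to gene length and library depth). The table came from bulk RNA-seq of sorted DN3 thymocytes, the immature T cell precursors that lack CD4, CD8 and CD44 and carry CD25, which is the stage at which a rearranged TCR beta chain is tested. The 4 control libraries were from C57BL/6 mice with floxed Sel1l alleles and no Cre (Sel1l-f/f), and the 4 Sel1l CKO libraries were from C57BL/6 mice with the same floxed alleles and the hCD2cre transgene (Sel1l-f/f hCD2cre+). All mice were 6 weeks old, so that both groups carried the floxed alleles and only the Sel1l CKO group carried Cre, which the study describes as active from the earliest thymic progenitors onward. SEL1L is the adaptor of the ubiquitin ligase HRD1 in endoplasmic reticulum-associated degradation, and the comparison asks what its loss does to the transcriptome of these cells. Whether each library came from 1 animal or from a pool is not given in the sources used here, and p-values measure the spread between these libraries.

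As background, proliferating lymphocytes take up amino acids and also make several of them. PHGDH, PSAT1 and PSPH turn a glycolytic intermediate into serine, SHMT2 moves the serine side chain onto folate inside the mitochondrion, and MTHFD2 oxidises the resulting methylene-folate on the way to formate for nucleotide synthesis. ASNS amidates aspartate to asparagine, ALDH18A1 and PYCR1 take part in converting glutamate to proline, and CBS and CTH carry sulfur from homocysteine to cysteine. Many of these genes are textbook targets of ATF4, a transcription factor whose translation rises when the kinases PERK, GCN2, PKR or HRI phosphorylate eIF2alpha.

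The libraries held between 32900253 and 50401359 reads on genes, as recovered from the steps of the RPKM values. Sel1l itself was at 1.67 ± 0.114 RPKM in control libraries and 1.09 ± 0.222 in Sel1l CKO libraries (mean ± SD, n = 4), that is at 65.1% of control, with every Sel1l CKO library below every control library (log2 fold change -0.59, limma adjusted p = 0.0327). The whole-gene value does not show the floxed part alone. Within the Sel1l CKO group it was 0.917 and 0.876 in replicates 1 and 2 and 1.32 and 1.23 in replicates 3 and 4. All 12 DN3 markers were measured, and their summed level was 667 to 729 RPKM in control and 605 to 631 in Sel1l CKO, without overlap. Singly, 0 of the 12 passed the limma test, against 1.01% lower over all tested genes. Complete separation was seen downward for 4 and upward for 0, against 4.94% and 5.32% of all genes above 0. The groups overlapped for Thy1, the highest (296 and 276 RPKM), and for Il2ra, which encodes CD25 (17.5 and 19.6). Marker sums of other cells were far lower, at 9.31 to 11.5 against 5.73 to 9.12 for the 8 B cell markers, 3.52 to 6.19 against 1.91 to 3.97 for 7 myeloid markers, 4.32 to 6.18 against 2.86 to 3.60 for 7 stromal markers, 0 to 1.12 against 0.465 to 2.66 for 5 erythroid markers, and 3.80 to 4.88 against 3.87 to 5.74 for 7 markers of later thymocytes. The 5 NK and gamma-delta markers summed to 32.6 to 39.8 in control and 24.0 to 35.6 in Sel1l CKO, nearly all of it Nkg7, and the erythroid gene Alas2 was at 0 throughout. The marker sums add deposited values, which divide by the whole gene with its introns, so markers with long introns count for little. Single genes made up most of some sums. Cd79b averaged 9.07 RPKM in control and 6.89 in Sel1l CKO, and Epcam of the stromal list 4.02 and 2.01. The part of the shifts in marker sums in the results was not tested. In bulk RNA, a different share of cells and a different amount of RNA per cell cannot be told apart.

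Of the 10 enzymes, 9 were higher in every Sel1l CKO library than in any control library and 1, Cbs, was lower in every one. Over the 15856 genes with a value above 0, the same complete separation occurred upward in 5.32% and downward in 4.94%. The genes with a mean of at least 1 RPKM were tested with limma on log2(RPKM + 0.1), which understates the change of genes near 0. This filter uses the deposited values, which divide by the whole gene with its introns, so a gene with long introns can fall under it. In that fit 278 of 6512 genes (4.27%) were higher and 66 (1.01%) lower at an adjusted p under 0.05. Of the 10 enzymes 7 passed the filter and all 7 were among the higher genes, with a median log2 fold change of 0.90 against 0.01 over all tested genes. Asns passed the filter only through its level in Sel1l CKO, so its place among the tested genes was fixed by the group in which it is high. Pycr1, Cth and Cbs stayed under the filter. In a limma voom fit on the recovered reads, which keeps weakly expressed genes, 338 of 11617 genes (2.91%) were higher, and 9 of the 10 enzymes were among them. Cth, with 0 reads in each control library, entered the voom fit only through its reads in Sel1l CKO. Leaving out any 1 of the 4 control libraries left 4 of the 7 called, because Phgdh, Psph and Mthfd2 moved past the threshold (adjusted p between 0.0592 and 0.0982), while their log2 fold changes stayed between 0.30 and 1.08. Without Sel1l CKO replicate 2, the library with the highest values, 6 of the 7 were called.

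**Figure D1:**
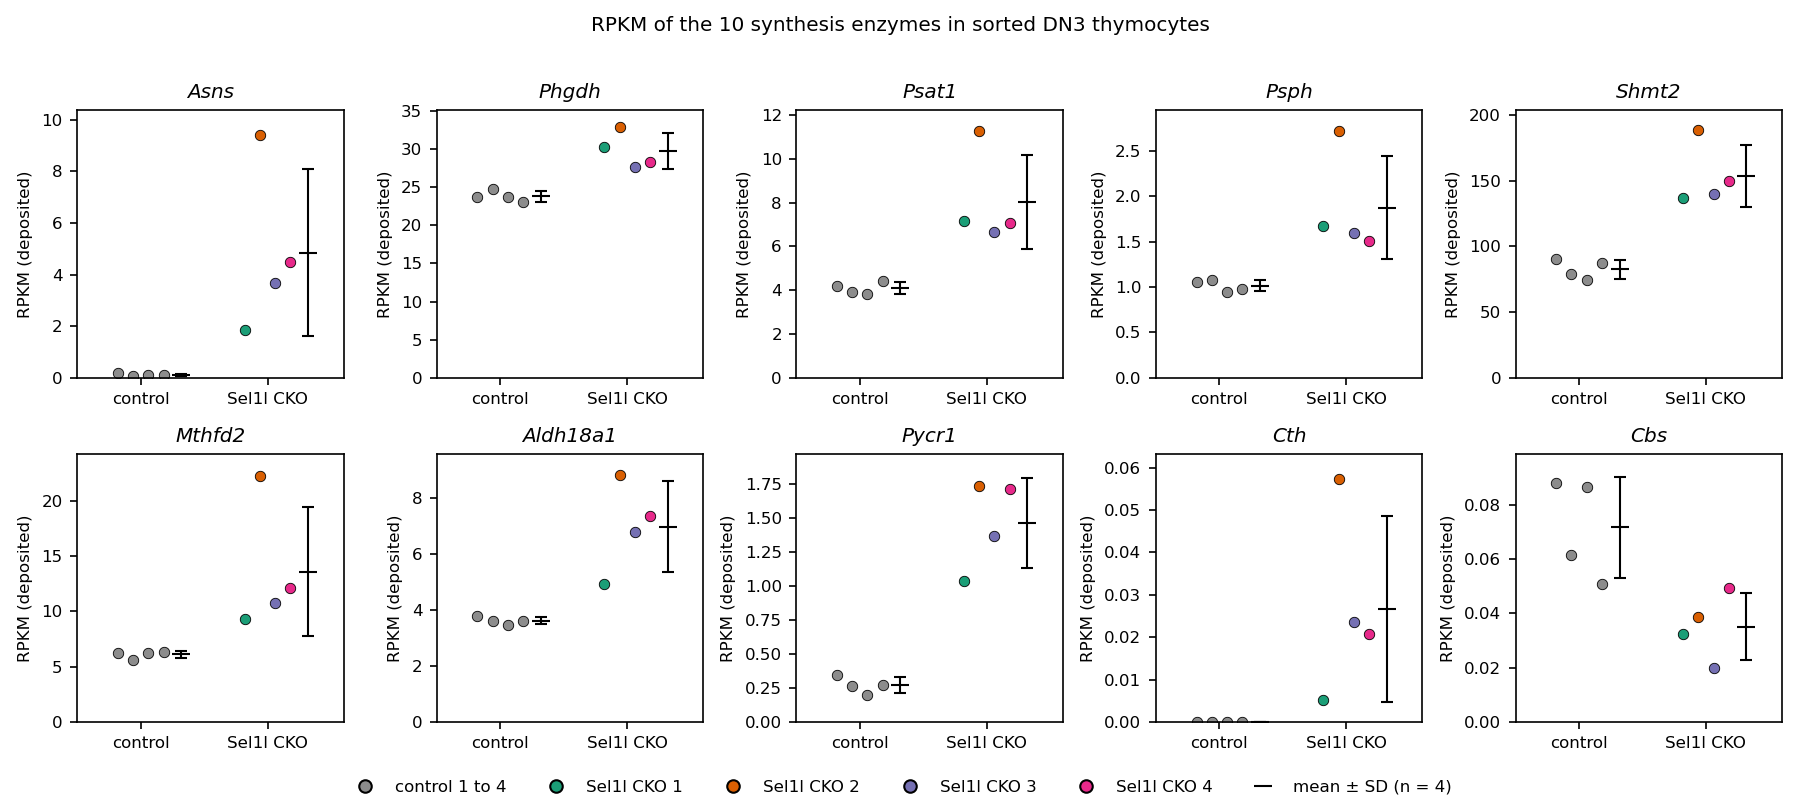
RPKM of each enzyme (vertical axes, linear, from 0) in the 4 control libraries (grey) and the 4 Sel1l CKO libraries (1 colour per library), with the mean ± SD of each group. The groups are separate in all 10 panels, upward in 9 and downward for Cbs, and Sel1l CKO replicate 2 is the highest library in 9 of them.

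Asparagine synthetase had the largest ratio of means among the enzymes with reads in both groups. Asns (chr6:7675169-7693254, minus strand, GRCm38) measured 0.167, 0.0694, 0.0911 and 0.106 RPKM across the control libraries, in the order of their replicate numbers as in all such lists here, and 1.86, 9.40, 3.65 and 4.47 RPKM across those of Sel1l CKO. In reads, these are 58 to 123 in the control libraries and 1273 to 8567 in the Sel1l CKO libraries. The gene was thus barely expressed in control DN3 cells, and even the lowest Sel1l CKO library stood 17.2-fold over the control mean. The ratio of the group means was 44.7, and the log2 fold change was 4.36 with an SE of 0.40 (adjusted p = 2.28e-04). The Sel1l CKO libraries differed widely among themselves, by a factor that ran from 17.2-fold to 86.7-fold over control. Within replicates 1 and 2 the log2 fold change was 4.34 and within replicates 3 and 4 it was 4.39, so neither subset carried the difference alone.

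Promoter windows of RefSeq genes (GRCm38.p6, 300 bases that span the start, most of them before it) were searched for TGATGNAA on both strands, the core of the composite element that C/EBP and ATF family members, ATF4 among them, are known to bind. A window was at hand for 9 of the 10 enzymes, all but Cth. The motif occurred in 2 of these 9 enzymes, Asns and Pycr1, and in 3.97% of all 32851 windows. The shorter TGATGNA, which every TGATGNAA contains, occurred in 4 of the 9, adding Mthfd2 and Aldh18a1. By window that is 4 of 10, against 12.2% of all windows. The 3 enzymes with the highest log2 fold change among those with a window are shown together with Cbs, the enzyme that was lower, each 5′ to 3′ along the gene, with a match in capitals. The windows are chr6:7693160-7693459 for Asns, chr11:120643699-120643998 for Pycr1, chr6:83317555-83317854 for Mthfd2 and chr17:31637156-31637455 for Cbs, all on the minus strand.
Asns: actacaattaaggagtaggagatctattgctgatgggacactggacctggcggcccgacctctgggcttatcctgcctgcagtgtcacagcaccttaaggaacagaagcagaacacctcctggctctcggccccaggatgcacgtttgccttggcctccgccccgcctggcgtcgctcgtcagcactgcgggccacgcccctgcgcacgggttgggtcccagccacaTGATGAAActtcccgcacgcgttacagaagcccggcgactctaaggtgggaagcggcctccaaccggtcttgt
Pycr1: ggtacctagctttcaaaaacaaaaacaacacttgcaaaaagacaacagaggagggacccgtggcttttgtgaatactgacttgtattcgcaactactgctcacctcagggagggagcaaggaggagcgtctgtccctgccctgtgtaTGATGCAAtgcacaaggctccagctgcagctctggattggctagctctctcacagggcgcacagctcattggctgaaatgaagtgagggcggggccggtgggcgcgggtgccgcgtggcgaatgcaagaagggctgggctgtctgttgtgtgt
Mthfd2: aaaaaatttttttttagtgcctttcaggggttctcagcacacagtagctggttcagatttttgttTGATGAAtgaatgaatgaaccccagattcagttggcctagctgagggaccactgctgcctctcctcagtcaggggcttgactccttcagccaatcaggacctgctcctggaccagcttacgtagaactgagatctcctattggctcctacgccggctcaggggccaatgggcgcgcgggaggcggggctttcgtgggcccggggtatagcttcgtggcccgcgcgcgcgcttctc
Cbs: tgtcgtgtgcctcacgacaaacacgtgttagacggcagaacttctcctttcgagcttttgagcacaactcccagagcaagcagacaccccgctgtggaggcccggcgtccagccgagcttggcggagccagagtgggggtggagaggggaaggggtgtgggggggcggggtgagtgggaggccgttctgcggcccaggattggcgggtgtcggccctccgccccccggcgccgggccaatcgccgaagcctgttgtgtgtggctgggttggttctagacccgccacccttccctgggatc
Positions count from the RefSeq start, which for the genes shown is not the GENCODE start of the gene coordinates given elsewhere here. The Asns match TGATGAAA begins 23 bases before the RefSeq start, which places it inside the GENCODE gene. The Pycr1 match TGATGCAA begins 103 bases before the RefSeq start. The Mthfd2 match is only of the shorter form and begins 185 bases before the RefSeq start. The whole Mthfd2 window lies inside the GENCODE gene (chr6:83305691-83325908), far from its GENCODE start. The Aldh18a1 match lies on the other strand at 188 bases before the RefSeq start. Neither form was found in the Cbs window. A match describes the letters in the window, and no binding was measured.

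All 3 enzymes of serine synthesis were higher in Sel1l CKO, by unequal amounts. Phgdh (chr3:98313170-98339990), which commits 3-phosphoglycerate to the pathway, was at 23.7, 24.8, 23.7 and 23.0 RPKM in control and 30.2, 32.9, 27.6 and 28.3 RPKM in Sel1l CKO. The groups did not overlap, but the difference was the smallest among the 7 tested enzymes, a ratio of means of 1.25 and a log2 fold change of 0.32 (SE 0.07, adjusted p = 0.0312). The Phgdh call was lost without any 1 of the control libraries and without Sel1l CKO replicate 1 (adjusted p = 0.0732) or replicate 2 (0.0582). Psat1 (chr19:15904678-15947337), the aminotransferase of the second step, was at 4.21, 3.91, 3.85 and 4.43 RPKM in control and at 7.17, 11.3, 6.66 and 7.05 in Sel1l CKO. Its ratio of means was 1.96 and its log2 fold change 0.92 (SE 0.15, adjusted p = 0.00815). Psph (chr5:129765558-129787449), the phosphatase that releases serine, was at 1.06, 1.07, 0.948 and 0.976 RPKM in control and at 1.67, 2.72, 1.59 and 1.51 in Sel1l CKO. The log2 fold change was 0.79 (SE 0.17, adjusted p = 0.0257), and the call was lost with any 1 control library left out (adjusted p between 0.0592 and 0.0773) and when genes of every level were tested (0.0871). In Psat1 and Psph, Sel1l CKO replicate 2 stood apart from 3 libraries that lay close together. Psat1 overlaps a gene on the opposite strand (Gm3329), Psph another (Cct6a) and Shmt2, described next, a further one (Ndufa4l2), and Phgdh has an annotated pseudogene. Mthfd2 (Gm43890), Aldh18a1 (Gm15801) and Cth (Gm43314) overlap a gene on their own strand, whose reads strand cannot separate. Whether counting used strand is not given in the sources used here, so reads of the opposite-strand pairs may not have been separated either.

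Both mitochondrial one-carbon enzymes were higher, whereas the cytosolic enzymes of the same steps did not pass the test. Shmt2 (chr10:127517123-127522444) was at 90.1, 78.7, 74.7 and 87.1 RPKM in control and at 137, 188, 140 and 150 RPKM in Sel1l CKO. Every Sel1l CKO library exceeded the highest control by a wide margin, and the log2 fold change was 0.89 (SE 0.11, adjusted p = 0.00130). Mthfd2 (chr6:83305691-83325908), the NAD-dependent dehydrogenase and cyclohydrolase, was at 6.23, 5.63, 6.23 and 6.35 RPKM in control and at 9.31, 22.2, 10.7 and 12.1 in Sel1l CKO. Its ratio of means was 2.23 and its log2 fold change 1.06 (SE 0.23, adjusted p = 0.0301). The Mthfd2 call was lost without Sel1l CKO replicate 4 (adjusted p = 0.0550), without any 1 control library and when genes of every level were tested (0.102), and it was kept without replicate 2 at a log2 fold change of 0.80 (adjusted p = 0.00191). Shmt1, the cytosolic counterpart of Shmt2, was at 4.65 ± 0.392 RPKM in control and 4.90 ± 0.997 in Sel1l CKO (log2 fold change 0.06, 95% interval -0.25 to 0.37, adjusted p = 0.844). Mthfd1, the cytosolic trifunctional enzyme, was at 3.59 ± 0.297 and 3.84 ± 0.685 RPKM (log2 fold change 0.08, 95% interval -0.20 to 0.36, adjusted p = 0.737). For both cytosolic genes, Sel1l CKO replicates 1 and 2 lay above the control mean and replicates 3 and 4 below it.

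The difference between the compartments was tested within each library, as the ratio of recovered reads per exon base of an enzyme to its partner, a comparison chosen after the data were seen. Shmt2 over Shmt1 was 5.01 ± 0.309 in control and 9.001 ± 1.57 in Sel1l CKO (n = 4), a 1.78-fold higher ratio. Mthfd2 over Mthfd1 was 0.403 ± 0.0427 in control and 0.828 ± 0.270 in Sel1l CKO, and the library values ran from 0.365 to 0.463 against 0.503 to 1.16. Both mitochondrial enzymes were thus higher relative to their cytosolic partners in each of the 4 Sel1l CKO libraries than in any control. Mthfd2 over Mthfd2l, a related mitochondrial enzyme, was 35.8 ± 2.71 and 79.6 ± 31.9. Mthfd2l itself was near the same level in both groups, at 0.0431 ± 0.00366 and 0.0429 ± 0.00519 RPKM. Of 4 such ratios compared, all 4 separated the groups completely, with an exact two-sided permutation p of 0.0286 each, the smallest that 70 assignments allow, and 0.0286 after adjustment over the 4. The pairs were chosen with these values known and Mthfd2 enters more than 1 ratio. The p-values therefore describe the separation and give no separate support. Without Sel1l CKO replicate 2, the library highest for Mthfd2, the fold of the ratio was 1.77 for Shmt2 over Shmt1, 1.74 for Mthfd2 over Mthfd1 and 1.78 for Mthfd2 over Mthfd2l.

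**Figure D2:**
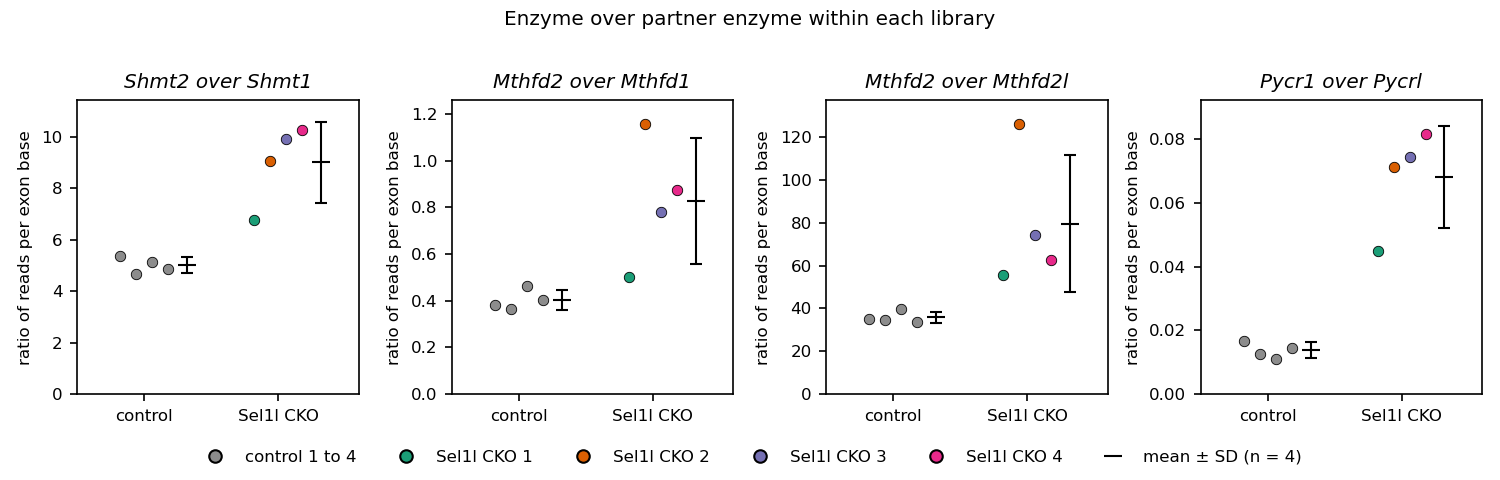
Ratio of recovered reads per exon base of an enzyme to that of a partner enzyme in the same library (vertical axes, linear, from 0), for 4 control libraries (grey) and 4 Sel1l CKO libraries (1 colour each), with mean ± SD. In all 4 panels each Sel1l CKO library lies above each control library; Pycrl is the symbol the table uses for Pycr3.

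Further along the mitochondrial folate route, Aldh1l2, which releases carbon dioxide from formyl-folate, was all but silent in control. Its recovered reads were 0, 1, 0 and 0 in control replicates 1 to 4 and 34, 90, 83 and 58 in Sel1l CKO. Relative to depth that is 278-fold, with a 95% exact counting interval of 49.4 to 11002 that covers counting error only. Mthfd1l, which makes formate, was at 0.498 ± 0.0619 RPKM in control and 0.692 ± 0.151 in Sel1l CKO, with no overlap (exact two-sided permutation p = 0.0286), and did not pass the voom fit (adjusted p = 0.101). Both genes were under the filter of the main test, which uses the deposited values. With RPKM recomputed on exon length, Mthfd1l was at 21.8 ± 2.71 in control and 30.3 ± 6.62 in Sel1l CKO.

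The proline enzymes differed in how much they rose. Aldh18a1 (chr19:40550257-40588463), which makes the glutamate semialdehyde from which proline is formed, was at 3.78, 3.62, 3.48 and 3.60 RPKM in control and at 4.94, 8.84, 6.80 and 7.36 in Sel1l CKO. The controls lay within a narrow band and the Sel1l CKO libraries spread over a wider one above it, with a log2 fold change of 0.90 (SE 0.15, adjusted p = 0.00819). Pycr1 (chr11:120635712-120643769), a mitochondrial reductase of the last step, was at 0.342, 0.268, 0.201 and 0.270 RPKM in control and at 1.04, 1.74, 1.37 and 1.72 in Sel1l CKO, from 57 to 112 reads against 317 to 705. Its ratio of means was 5.42, after Asns the largest among the enzymes with a value above 0 in both groups. With a mean of 0.867 RPKM it was under the filter, and the voom fit gave a log2 fold change of 2.43 (SE 0.28, adjusted p = 4.35e-04). Pycr3, a cytosolic reductase listed as Pycrl, was at 10.5 ± 0.844 and 11.7 ± 1.41 RPKM (log2 fold change 0.14, adjusted p = 0.438). The ratio of Pycr1 to Pycrl per exon base was 0.0138 ± 0.00247 in control and 0.0681 ± 0.0161 in Sel1l CKO, so that Pycr1 remained far below Pycrl in both groups. Oat, which interconverts ornithine and glutamate semialdehyde, rose from 3.63 ± 0.360 to 7.80 ± 0.342 RPKM (log2 fold change 1.09, SE 0.08, adjusted p = 6.54e-05). Prodh, the first enzyme of proline breakdown, was at 1.83, 1.73, 1.98 and 1.49 RPKM in control and at 0.920, 0.852, 1.34 and 1.36 in Sel1l CKO. The groups did not overlap, but the fit left Prodh outside the threshold (log2 fold change -0.63, SE 0.16, adjusted p = 0.0577), whereas the voom fit placed it inside (adjusted p = 0.0308). The Prodh call was also gained without Sel1l CKO replicate 3 (adjusted p = 0.0496) or replicate 4 (0.0418).

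The enzymes that make cysteine were close to silent in DN3 cells. Cth (chr3:157894248-157925077), which cleaves cystathionine to cysteine, had 0 reads in each of the 4 control libraries and 6, 89, 24 and 21 reads in Sel1l CKO replicates 1 to 4, at most 0.0573 RPKM. Against a floor of 3 reads over the whole control group, the 140 reads in Sel1l CKO were at least 48.9-fold higher relative to depth. Of these reads 89 came from replicate 2, and without it the remaining 51 were at least 26.5-fold higher. The voom fit, which Cth entered only through its Sel1l CKO reads, called it (adjusted p = 0.0101). On the RPKM scale without a filter Cth was not called (adjusted p = 0.220). Cbs (chr17:31608894-31637238), which forms cystathionine, was at 0.0881, 0.0613, 0.0867 and 0.0507 RPKM in control and at 0.0322, 0.0387, 0.0198 and 0.0495 in Sel1l CKO. These values rest on 47 to 88 reads in control and 16 to 48 in Sel1l CKO, and the highest Sel1l CKO library came near the lowest control. The ratio of means was 0.489. Neither the voom fit (log2 fold change -1.03, SE 0.36, adjusted p = 0.142) nor the fit without a filter (adjusted p = 0.149) called Cbs lower, and the exact two-sided permutation p was 0.0286, the smallest the design allows, for both Cth and Cbs.

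Levels were compared between genes as RPKM recomputed on exon length, since the deposited values divide by the whole gene with its introns. In control libraries the order was Phgdh at 257 ± 7.88, Shmt2 at 141 ± 12.3, Psat1 at 41.1 ± 2.702, Aldh18a1 at 33.98 ± 1.18, Mthfd2 at 20.9 ± 1.10, Psph at 5.13 ± 0.310, Asns at 0.716 ± 0.278, Pycr1 at 0.553 ± 0.118, Cbs at 0.235 ± 0.0612 and Cth at 0. Only Asns and Pycr1 overlapped among neighbours in that order. In Sel1l CKO Asns stood at 32.0 ± 21.3, above Psph at 9.47 ± 2.87, and its library values overlapped those of both neighbours in the order, Psph and Mthfd2 (46.5 ± 20.05). Phgdh at 321 ± 25.6 and Shmt2 at 263 ± 40.5, which were well apart in control, overlapped in Sel1l CKO. Psat1 (80.6 ± 21.7) and Aldh18a1 (65.5 ± 15.2) overlapped as well, and Pycr1 at 2.998 ± 0.677 stood clear of its neighbours. Cth (0.295 ± 0.242) and Cbs (0.115 ± 0.0408) were last and overlapped. Asns thus went from the level of a nearly silent gene to that of the enzymes in the middle of the order.

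Replicate 2 was the highest Sel1l CKO library for 9 of the 10 enzymes, all but Cbs, and replicate 1 the lowest for 6. For the 7 enzymes called higher, replicate 2 was the highest Sel1l CKO library in 7 of 7, against 74 of the 278 genes called higher overall (26.6%). It was also the highest for 4 of 4 amino acid transporters and 12 of 12 cytosolic aminoacyl-tRNA synthetases called higher, and for 3 of the 7 genes around ATF4 and CHOP called higher, Atf5, Trib3 and Sesn2. It was the highest for neither Oat nor Bcat2, for both of which replicate 1 was the highest. Mthfd2 in replicate 2 was 3.64-fold over the control mean and in the other Sel1l CKO libraries 1.52-fold to 1.98-fold. Atf4 mRNA did not follow that order, at 1.73-fold, 1.84-fold, 1.90-fold and 1.96-fold in replicates 1 to 4. The transcript of Ddit3, which encodes CHOP, was at 5.68, 6.96, 8.20 and 7.91 RPKM in the same libraries. Replicate 2 was the deepest library and had 0.876 RPKM of Sel1l, the lowest of the 4, and 657 RPKM summed over 15 proliferation genes, the highest of the 4 (the others were 642, 474 and 459). It had the lowest B cell and myeloid marker sums, 5.73 and 1.91 RPKM. Their part in the replicate 2 values was not tested.

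**Figure D3:**
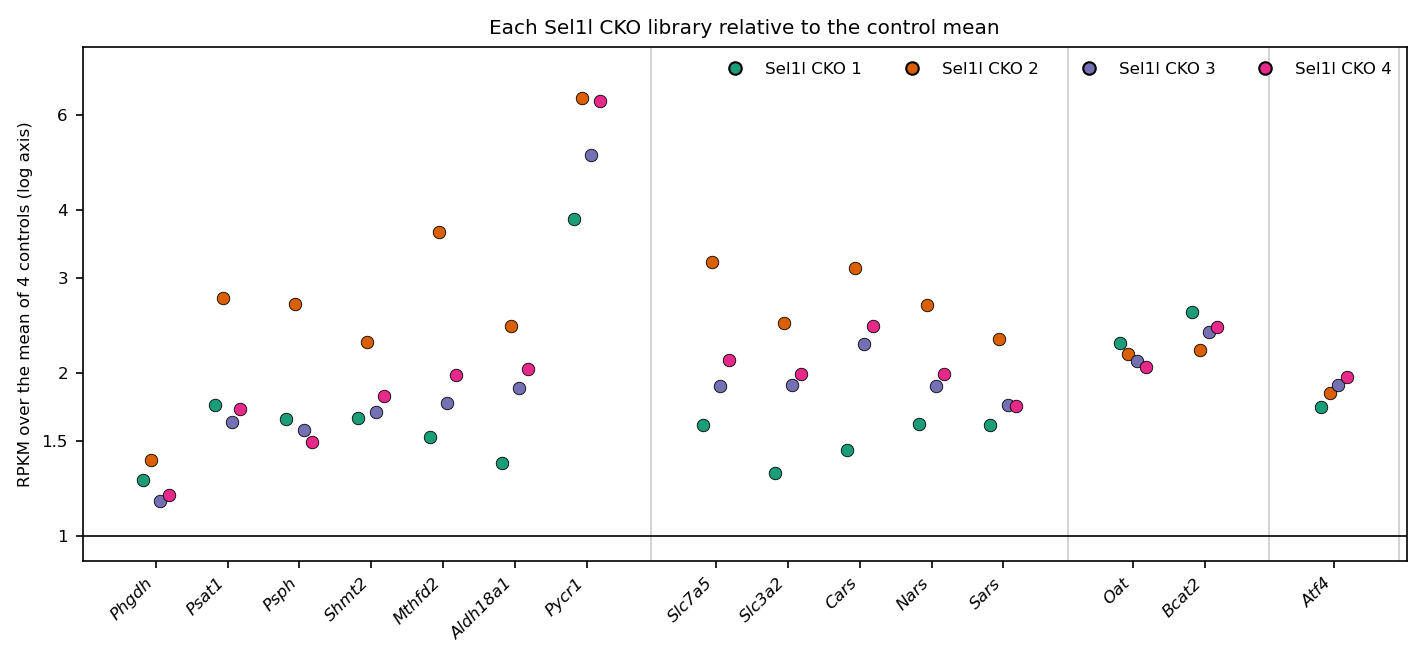
RPKM of each Sel1l CKO library divided by the mean of the 4 controls (vertical axis, log scale; 1 is the control mean), for 7 enzymes, 2 transporters and 3 tRNA synthetases, the other pathway genes Oat and Bcat2, and Atf4. Replicate 2 is highest for the first 12 genes and not for Oat, Bcat2 or Atf4.

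Most other genes of the same pathways did not pass the test. Of 46 further genes listed by role, 44 were in the table and 31 were tested, of which 2 were higher (Oat and Bcat2) and 0 lower by limma, with a median log2 fold change of 0.08. Over all tested genes 4.27% were higher and 1.01% lower. For the 12 tested genes of the cytosolic one-carbon and methionine cycle, none was called and the log2 fold changes ran from -0.27 to 0.25. For 4 tested genes of the mitochondrial one-carbon and glycine cleavage group they ran from -0.12 to 0.14, for 4 of cysteine and glutathione synthesis from -0.19 to 0.22, and for 7 of aspartate, glutamate, glutamine and alanine metabolism from -0.16 to 0.42. Complete separation of the groups was seen upward for 7 of the 44 and downward for 3, against 5.32% and 4.94% of all genes with a value above 0. Bcat2, the mitochondrial branched-chain aminotransferase, was at 2.77, 2.71, 1.93 and 2.65 RPKM in control and at 6.53, 5.55, 5.99 and 6.12 in Sel1l CKO (log2 fold change 1.24, SE 0.12, adjusted p = 2.39e-04). Over the control mean, Bcat2 was 2.20-fold to 2.59-fold and Oat 2.05-fold to 2.27-fold in the Sel1l CKO libraries.

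**Figure D4:**
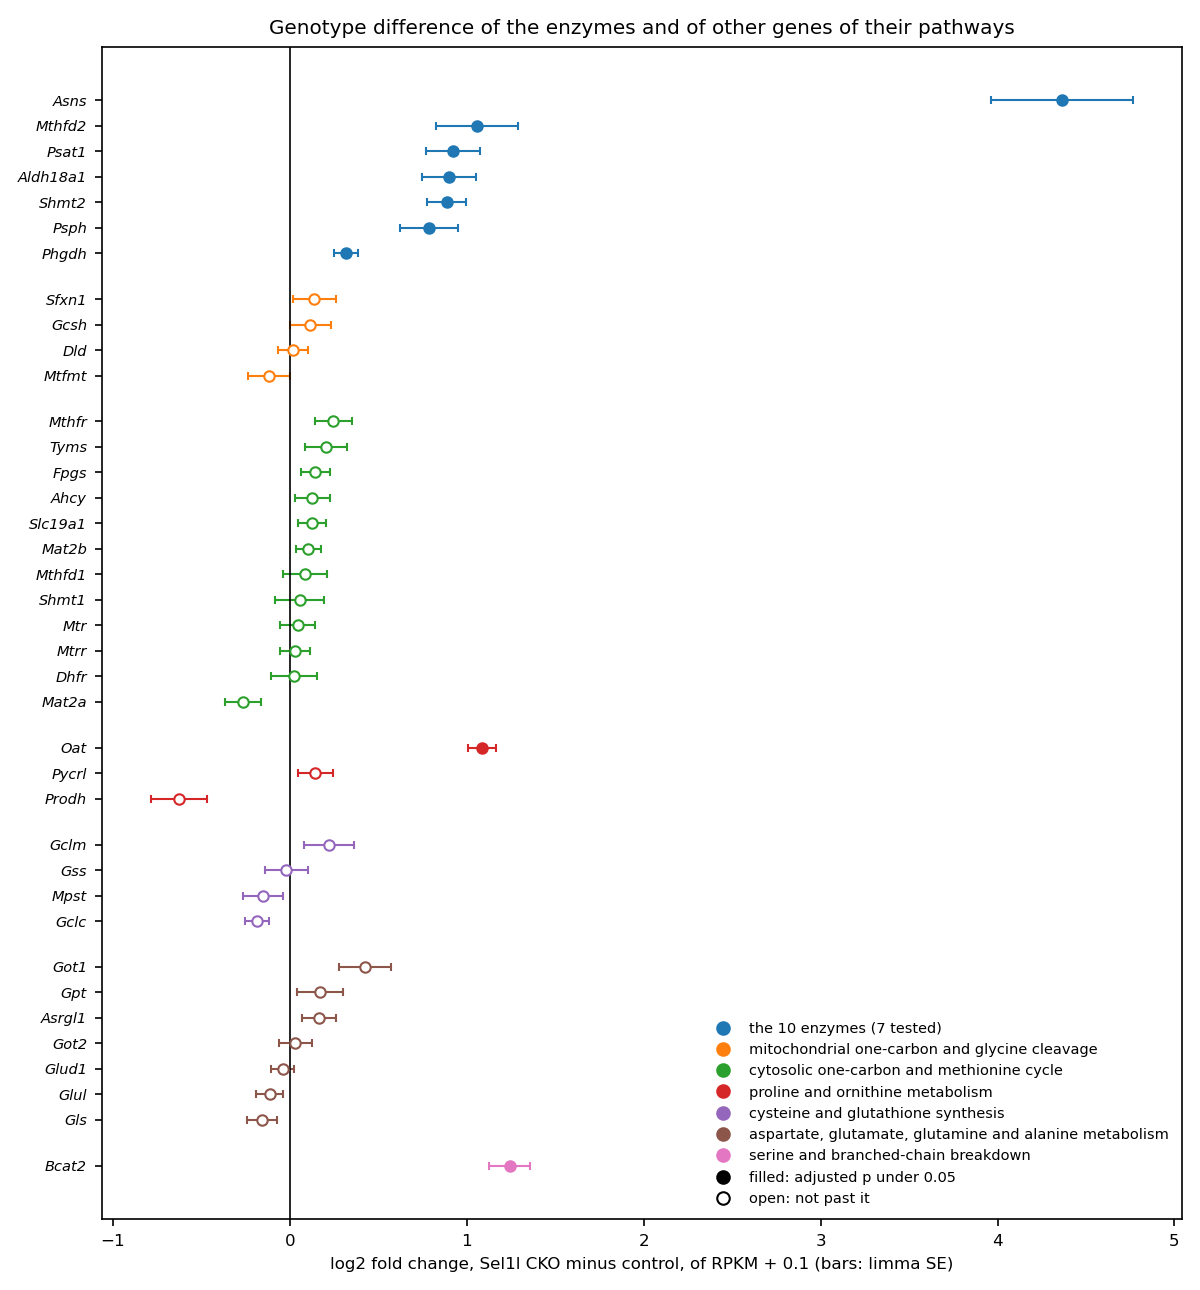
Log2 fold change of RPKM + 0.1 (horizontal axis, Sel1l CKO minus control, bars limma SE) of the 7 tested enzymes and 31 other tested genes of their pathways, grouped by role. Filled points are past an adjusted p of 0.05, which holds for all 7 enzymes and for Oat and Bcat2.

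Genes that import amino acids or load them onto tRNA were also called only upward. The counts of this paragraph stand against 4.27% higher and 1.01% lower over all tested genes. Of 13 amino acid transporters, 9 were tested and 4 were higher, with a median log2 fold change of 0.17. Slc7a3, a cationic amino acid transporter, was at 0.0961 ± 0.0429 RPKM in control and 2.90 ± 1.76 in Sel1l CKO, and like Asns it passed the filter only through its level in Sel1l CKO. Slc7a5 (log2 fold change 1.08, adjusted p = 0.00815) and Slc3a2 (0.90, adjusted p = 0.0188), which together form a large neutral amino acid exchanger, were also higher. Of 20 cytosolic aminoacyl-tRNA synthetases 12 were higher and 0 lower, with a median log2 fold change of 0.53, led by Cars for cysteine (1.11, adjusted p = 0.0102), Nars for asparagine (1.001, adjusted p = 0.00246) and Sars for serine (0.87, adjusted p = 0.00164). Of 10 tested genes around ATF4 and CHOP 7 were higher, but 4 of the 7, Chac1, Trib3, Sesn2 and Eif2ak3, passed the filter only through Sel1l CKO (Sesn2 and Eif2ak3 are named after their values were seen). The log2 fold changes were, for Chac1, a glutathione-degrading enzyme listed at 0 in 3 of the 4 control libraries, 4.62 (adjusted p = 2.74e-06), for Trib3, a pseudokinase, 4.39 (adjusted p = 5.83e-04, and 0.0573 in the voom fit) and for Atf5, a transcription factor, 2.98 (adjusted p = 2.59e-04). The 3 not called, named after their values were seen, were Cebpg (log2 fold change 0.29), Cebpb (-0.01) and Ppp1r15a (-0.82, adjusted p = 0.501). Ppp1r15a was at 32.8, 29.1, 162 and 171 RPKM in control and at 25.2, 24.1, 63.6 and 69.8 in Sel1l CKO. None of 15 proliferation genes passed the test, with a median log2 fold change of 0.15. Without Sel1l CKO replicate 2 the counts were 4 transporters, 11 synthetases, 7 genes around ATF4 and CHOP and 0 proliferation genes.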

How the data were processed

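DN3 thymocytes were sorted into TRIzol. The authors prepared stranded poly(A) libraries, sequenced them paired-end on a HiSeq instrument, aligned the reads with STAR 2.5.2b to GRCm38, counted protein-coding genes with HTSeq 2.7 (versions per the submitters' processing notes) and deposited RPKM values for 8 libraries, grouped here by the genotype in the labels. The authors' own test was DESeq2.

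The steps between low RPKM values correspond to single reads if the length is taken as the gene span with introns. With GENCODE M21 spans, 12002 of 15643 genes (76.7%) gave whole reads in every library within 0.05 read, against 4.32% with exon lengths. For 3333 more the length was solved from the values, Mthfd2 and Cbs among them. The solved length of Mthfd2 was 11916 bases against a GENCODE span of 20218, and that of Cbs 24564 against 28345. Their deposited values thus refer to a shorter length than the coordinates given. Their exon lengths, and the overlap of Mthfd2 with Gm43890, are from the longer GENCODE model. Recovered reads made up 95.2% to 98.6% of each library's total. Counting error is smallest for the abundant enzymes and matters for Cth and Cbs.

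The 6512 genes whose RPKM averaged 1 or more were tested on log2(RPKM + 0.1) with limma 3.58.1 (R 4.3.3, trended variance, no covariate besides genotype, two-sided, Benjamini-Hochberg adjustment over these genes, threshold 0.05). Other SDs, ratios and exact permutation tests were computed in Python 3.11.15 with scipy 1.17.1 and pandas 2.3.3, and plots were drawn with matplotlib 3.10.9. The limma voom fit took the recovered reads, from an average of 10 per library upward. Alternatives were other pseudocounts, filters, scalings, array weights, a replicate block, a term for replicates 1 and 2 against 3 and 4, exon length, voom and leaving out each library.

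The members and gene lists were chosen with earlier results of these data known. Named are all 10 enzymes, Sel1l, partner enzymes, other pathway genes past the threshold, and at most 3 genes per context list by size of change. Further context genes were named after their values were seen. Coordinates are those of GENCODE M21 and, for promoters, of RefSeq. A further result is not reported here. Replicate numbers were not taken to pair the libraries.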

Additional observations from a re-analysis of the deposited data

Results flagged for a closer look

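Within a genotype, 27 groups of 4 libraries were examined for a library far from the other 3 by Dixon's criterion, which chance gives in about 1 of 20 groups, so that 1.35 were to be expected. There were 4. Psat1 in Sel1l CKO replicate 2 was at 11.3 RPKM, with the others between 6.66 and 7.17. Psph in the same library was at 2.72 RPKM, with the others between 1.51 and 1.67. Mthfd2 in control replicate 2 was at 5.63 RPKM, just below the other controls at 6.23 to 6.35. Bcat2 in control replicate 3 was at 1.93 RPKM, below the others at 2.65 to 2.77.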

How the results depend on the processing

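Among all genes the count called was 344. It came to 640 with array weights and 525 with a term for replicates 1 and 2 against 3 and 4, and to between 243 and 317 with 1 library left out. The count of enzymes called, 7 of 7 tested, stayed between 6 and 9 under the other alternatives and ranged from 4 to 7 with 1 library left out. The number tested differed among these. It was 9 of 10 called with voom, 8 of 8 on exon length and at a mean RPKM of at least 0.25, and only 6 of 10 with no filter. The count of other pathway genes called, 2, was 4 on exon length, 4 at a mean RPKM of at least 0.25, 4 with no filter, 5 with array weights and 6 with voom, the number of genes tested being larger in all of these but array weights, and 2 to 3 with 1 library left out. With no filter and without Sel1l CKO replicate 2, a setting chosen after seeing the data, the 3 counts were 260, 7 (of 10 enzymes tested) and 3, and Aldh18a1 was not called (adjusted p = 0.0577). No enzyme changed direction under any alternative run. Asns, Psat1 and Shmt2 were called under all 20 alternatives. Deviations of same-numbered libraries correlated over 0.1 in 2 of 4 pairs (0.00514 to 0.445, 6512 genes). Only 1 of 4 control libraries correlated best with its own number, so the number was not taken as a pairing. A split of replicates 1 and 2 against 3 and 4 was shared in part. Controls 1 and 2 gave 0.0973 to 0.292 with Sel1l CKO 1 and 2 and -0.250 to -0.220 with 3 and 4. Control 3 gave -0.376 and -0.359 with 1 and 2 and 0.445 and 0.404 with 3 and 4. Control 4 ran from -0.0828 to 0.0866. No label names a batch. With the replicate block the counts were 317, 6 and 2, and Phgdh (adjusted p = 0.0537) and Sel1l (0.0601) were not called. Sel1l was also not called with any 1 control or Sel1l CKO replicate 1 or 2 left out (adjusted p up to 0.0984) or with no filter (0.0904). Depth limits Cth and Cbs, with at most 89 reads in a library.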

Other observations

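Several pathway genes under the filter showed large differences, and are named here after their values were seen. With RPKM recomputed on exon length, Bcat1 was at 2.84 ± 0.501 in control and 13.4 ± 3.82 in Sel1l CKO. Gpt2 was at 0.818 ± 0.143 and 4.45 ± 2.69 on that scale. Bcat1, the cytosolic branched-chain aminotransferase, was at 0.315, 0.345, 0.247 and 0.380 RPKM in control and at 1.15, 2.14, 1.35 and 1.40 in Sel1l CKO, a ratio of means of 4.70 (adjusted p = 8.15e-05 in the voom fit and 0.00388 in the limma fit without a filter). Both branched-chain aminotransferases, Bcat1 and Bcat2, were therefore higher in all Sel1l CKO libraries than in any control. Gpt2, the mitochondrial alanine aminotransferase, was at 0.120, 0.166, 0.118 and 0.123 RPKM in control and at 0.285, 1.30, 0.540 and 0.738 in Sel1l CKO, a ratio of means of 5.44 (adjusted p = 0.0385 in the voom fit and 0.0806 in the limma fit without a filter). Like the 7 enzymes called higher, Bcat1 and Gpt2 were highest in Sel1l CKO replicate 2.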
